A study of Mus musculus with 40 samples.

Results

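Ifi27l2a and Ifi27l2b are neighbouring mouse genes of the interferon-induced Ifi27 family, and both were followed here through colonization of the mouse colon with Tritrichomonas musculis (T.mu), a flagellated protist of the rodent gut. They are 2 of the 45792 mouse gene identifiers in the count table, found by gene identifier. They were chosen by the measured T.mu and control levels of Ifi27l2a, whose difference was lost in total tissue by day 48 and not in epithelium, and Ifi27l2b was taken with it as its family member. The values of Ifi27l2a in T.mu and control libraries are therefore given as a description without a test, and Ifi27l2b, whose values the choice did not name, is tested. The 40 libraries come from colonic epithelial cells and from total colonic tissue, 20 of each. Mice of the T.mu groups had been given 2000000 sorted parasites, control mice no inoculum, and both were sampled at days 3, 14 and 48. Each group has 1 library per litter, 3 litters at days 3 and 14 and 4 at day 48. Strain, sex and age are not given in the sources used here, nor is it said whether the epithelial and tissue libraries of a litter come from the same mouse. The p-values therefore measure the spread between these libraries.

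Interferons are secreted proteins that act through paired cell-surface receptors. The receptors activate the kinases Jak1 and Tyk2, which phosphorylate Stat2; with Irf9 it takes part in a transcription factor complex that switches on a large set of antiviral genes. Proteins of the Ifi27 family, also called ISG12 proteins, are short and hydrophobic, and their genes are among those targets. The intestinal epithelium responds mainly to type III interferons and the cells beneath it mainly to type I.

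The 2 genes are close relatives, so the parts where their transcripts could share reads are shown first. In GRCm38 with the GENCODE M21 annotation, Ifi27l2a (ENSMUSG00000079017.3) lies at chr12:103442167-103443680 on the minus strand. Its protein-coding transcript has 4 exons, 463 bases and 90 codons. Ifi27l2b (ENSMUSG00000021208.9) lies at chr12:103450898-103457223 on the same strand, 7217 bases away, with no other annotated gene between them. Its transcript has 7 exons, 1093 bases and 283 codons. It carries a 30-base and a 162-base exon each in a pair: exons 2 and 5 are identical, and exons 3 and 6 differ at 1 base. The 162-base coding exon is the part that the 2 genes have most in common. It is printed here for both, in the direction of transcription, with capitals in the Ifi27l2b copies at bases that differ from Ifi27l2a.
Ifi27l2a exon 3, chr12:103442832-103442993, minus strand: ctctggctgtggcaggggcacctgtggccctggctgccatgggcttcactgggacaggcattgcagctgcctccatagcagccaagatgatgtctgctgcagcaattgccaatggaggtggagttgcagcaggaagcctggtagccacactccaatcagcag
Ifi27l2b exon 3, chr12:103456358-103456519, minus strand: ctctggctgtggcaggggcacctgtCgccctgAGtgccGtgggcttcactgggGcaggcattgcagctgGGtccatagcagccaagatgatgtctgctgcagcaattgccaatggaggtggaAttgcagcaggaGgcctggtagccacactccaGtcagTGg
Ifi27l2b exon 6, chr12:103451806-103451967, minus strand: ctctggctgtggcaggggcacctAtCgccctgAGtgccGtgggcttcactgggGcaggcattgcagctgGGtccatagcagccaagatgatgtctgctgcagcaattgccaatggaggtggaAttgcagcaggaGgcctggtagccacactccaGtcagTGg

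Exon 3 of Ifi27l2a matched exon 3 of Ifi27l2b at 150 of 162 bases (92.59%) and exon 6 at 149 (91.98%). The longest identical run was 51 bases. It ended 257 bases before the 3′ end of the Ifi27l2a transcript and, for the exon 3 copy, 870 before that of Ifi27l2b. The run of 51 bases was also found in exon 6 of Ifi27l2b, which lies nearer the 3′ end, just before the last exon of 455 bases. The libraries were made by 3′ digital gene expression, which reads near the 3′ ends of transcripts. Within the last 200 bases no window of 25 bases was shared between the 2 transcripts. The last exon is 217 bases long in Ifi27l2a and 455 in Ifi27l2b, so those 200 bases leave out the 162-base exon in both. In Ifi27l2a they stop just short of it, and how far reads reached from the 3′ end is not known here. Over the whole transcripts 38 of 439 windows of Ifi27l2a (8.66%) and 74 of 1069 of Ifi27l2b (6.92%) occurred in the other gene, and 0 in any further annotated gene. With windows of 50 bases, 2 of 414 of Ifi27l2a (0.483%) and 4 of 1044 of Ifi27l2b (0.383%) occurred in the other gene. Reads lying within an identical run of the 162-base exon could thus be counted for either gene, and other reads from that exon could be told apart. Reads from the last 200 bases could not be exchanged at 25 or 50 bases.

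Ifi27, the third family gene, lies 1927 bases from Ifi27l2a at chr12:103434211-103440239 on the plus strand, and shares no identical run of over 11 bases with either gene. In RefSeq (GRCm38.p6), however, the Ifi27l2a locus is drawn from 103433873 to 103443680 and contains Ifi27 on the opposite strand. The build and annotation behind the counts, and whether strand was used in counting, are not given in the sources used here, so reads from Ifi27 and Ifi27l2a in that span may not be separable. On the other side of the pair the nearest annotated gene is Gm47267, a long noncoding RNA gene 26218 bases away.

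**Figure D1:**
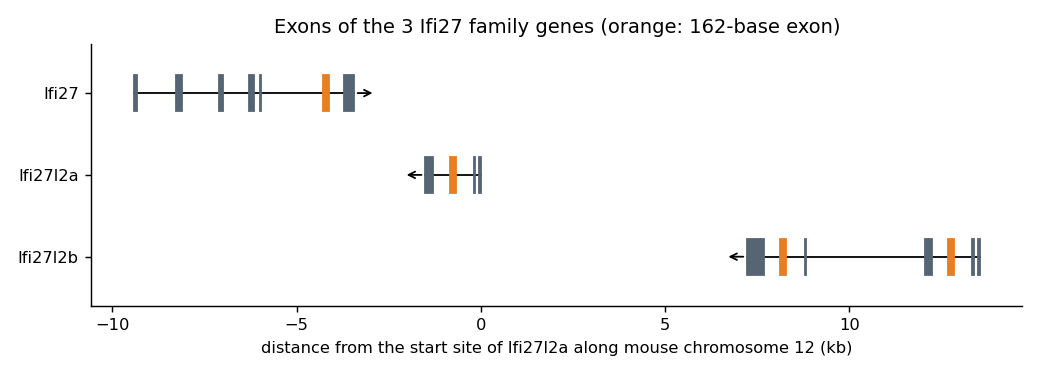
Exons of Ifi27, Ifi27l2a and Ifi27l2b by distance in kb from the start site of Ifi27l2a along chromosome 12; boxes are exons, lines introns, arrows the direction of transcription, and orange boxes the 162-base exon. Ifi27l2b carries that exon at 2 places, and Ifi27 runs toward Ifi27l2a from the other side.

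Depth varied widely between libraries. Totals of mouse counts were 170291 to 2866306 in epithelium (median 1166080) and 220717 to 6756616 in total tissue (median 2158349), and 3 and 4 libraries were under 400000 counts. In total tissue at day 48 the T.mu libraries were shallower, with a median of 504696 counts against 3323897.5 in control libraries. There the T.mu and control libraries also carry different second index sequences in their labels, while in the other 5 comparisons of T.mu with control both arms share one. Libraries of the 2 preparations differ in this index at day 14 and, in T.mu mice, at day 48. In total tissue at day 48 depth, index and inoculum cannot be told apart. The epithelial marker list summed to 5237 to 13834 CPM in epithelial and 8228 to 12867 CPM in tissue libraries, with none of its 8 genes at 0 in any group, and the 9 stromal and muscle markers to 0 to 56.8 and 2108 to 4882 CPM. In control mice 5 of the 8 epithelial markers were lower and 1 was higher in the epithelial libraries than in total tissue by edgeR (4 lower and 2 higher with RLE scaling), so the epithelial libraries were low in stromal RNA without being enriched in these markers.

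In epithelial cells Ifi27l2a was almost absent from control mice and present in every T.mu library. Levels are given as CPM, a gene's counts scaled to a common library total, with the library totals adjusted by trimmed mean of M values (TMM). At day 3 the litters gave 77.4, 53.3 and 58.5 CPM in T.mu mice (64, 18 and 68 counts), against 0, 0 and 0 CPM in control mice. At day 14 they gave 44.7, 16.5 and 76.8 CPM in T.mu mice, against 3.82, 3.99 and 1.85 CPM in control mice. At day 48 they gave 34.3, 43.0, 18.4 and 32.2 CPM in T.mu mice, against 4.08, 0, 3.74 and 5.63 CPM in control mice. The groups did not overlap at any day, and the lowest T.mu library of all 10 lay above the highest control. Groups of 3 or 4 libraries can stand apart by chance, and the share of all genes without overlap was not counted. By the edgeR test, a different measure, 0.356%, 0.504% and 0.287% of the 10119 genes tested in epithelium passed at days 3, 14 and 48. Controls at days 14 and 48 rested on 9 and 18 counts in all. The day 3 controls were shallow, with 327125, 670891 and 170291 mouse counts in total. Over them a floor of 3 counts is 2.75 CPM, so they were not shown to lie below the later controls. Means were 63.1 ± 12.7 CPM in T.mu mice and 0 CPM in control mice at day 3 (SD, n = 3 each). They were 46.0 ± 30.2 and 3.22 ± 1.19 CPM at day 14 (n = 3 each), and 32.0 ± 10.2 and 3.36 ± 2.39 CPM at day 48 (n = 4 each).

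The difference in epithelium was at least 23.4-fold at day 3, taking 150 T.mu counts against a floor of 3 counts over the 3 control libraries, a bound that covers counting error only. As most small counts were even, counts were also halved, and the bound was then 11.7-fold. The fitted log2 fold change of T.mu over control was 3.82 ± 0.59 (SE) at day 14, or 14.1-fold, and 3.16 ± 0.48 at day 48, or 8.91-fold. With 16.5 to 76.8 CPM at day 14, the T.mu litters varied more among themselves than the means of the 3 days differed from each other.

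In total tissue Ifi27l2a was abundant in control mice too, and the difference between T.mu and control was lost by day 48. At day 3 the litters gave 237, 205 and 393 CPM in T.mu mice, against 70.1, 68.9 and 54.5 CPM in control mice. At day 14 they gave 185, 229 and 138 CPM in T.mu mice, against 132, 63.6 and 45.7 CPM in control mice. At day 48 they gave 115, 139, 96.1 and 112 CPM in T.mu mice, against 112, 215, 134 and 133 CPM in control mice. The groups stood apart at days 3 and 14, although the highest control at day 14 lay just under the lowest T.mu library. At day 48 they overlapped, and T.mu was the higher in 1 of 4 litters. Of the 11696 genes tested in total tissue, 0.479%, 0.949% and 1.8% passed the edgeR test at days 3, 14 and 48. The share of all genes whose groups stood apart was not counted.

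Mean Ifi27l2a levels in total tissue were 278 ± 101 CPM in T.mu mice and 64.5 ± 8.70 CPM in control mice at day 3 (SD, n = 3 each), 184 ± 45.5 and 80.4 ± 45.5 CPM at day 14 (n = 3 each), and 115 ± 17.5 and 148 ± 45.8 CPM at day 48 (n = 4 each). The fitted log2 fold change was 2.10 ± 0.30 at day 3 (4.28-fold), 1.33 ± 0.33 at day 14 (2.51-fold) and -0.36 ± 0.27 at day 48 (95% interval -0.91 to 0.19). The day 14 value rests on 2 control libraries of under 400000 counts, with 48 and 16 Ifi27l2a counts; without the libraries under that depth, which leaves 1 control, it was 2.04.

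**Figure D2:**
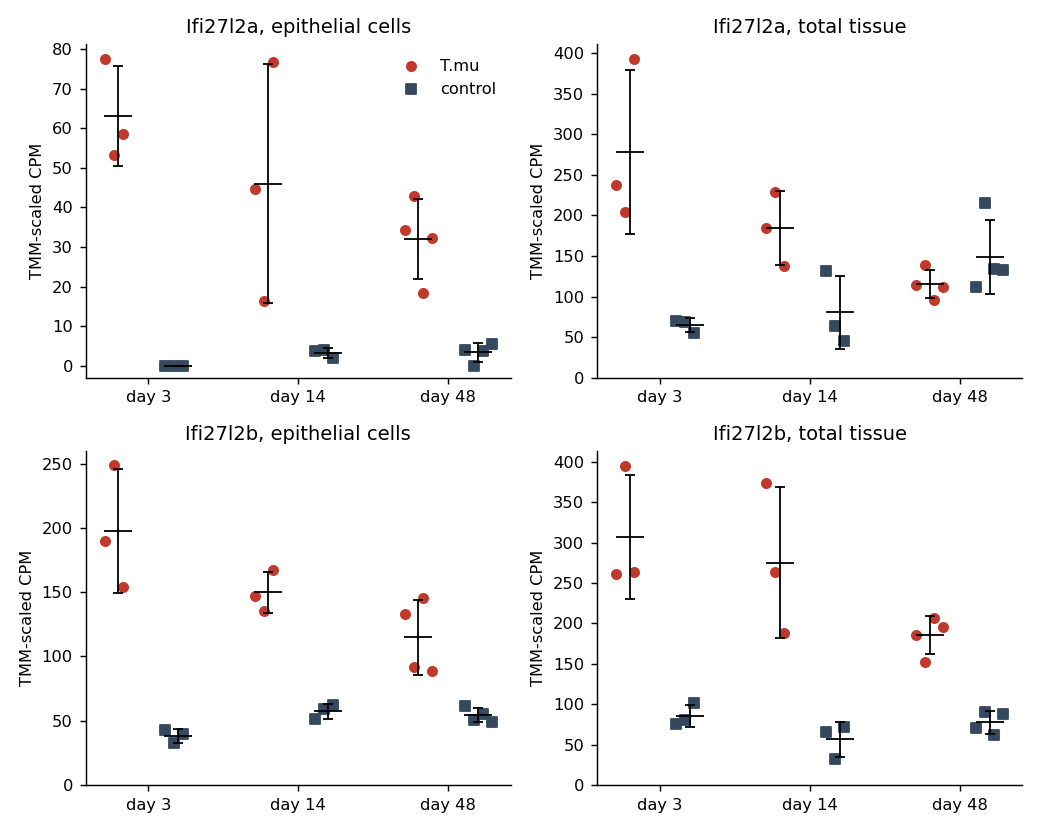
TMM-scaled CPM of Ifi27l2a (top) and Ifi27l2b (bottom) in epithelial cells (left) and total tissue (right) by day; each point is 1 library, T.mu red circles and control dark squares, with the mean and SD of 3 litters (4 at day 48) in black. T.mu and control overlap for Ifi27l2a in total tissue at day 48 and stand apart in the other comparisons shown. The share of all genes whose groups stand apart was not counted, and Ifi27l2a was chosen by its own values.

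Both arms of the total tissue comparison stood elsewhere at day 48 than at day 3. Between day 3 and day 48 the log2 level of Ifi27l2a was lower by 1.27 ± 0.28 in T.mu mice and higher by 1.19 ± 0.28 in control mice. Relative to day 14 it was lower by 0.70 ± 0.29 in T.mu mice and higher by 0.98 ± 0.31 in control mice. The 4 control libraries at day 48 (112 to 215 CPM) all lay above the 3 at day 3 (54.5 to 70.1 CPM). The highest of these day 48 controls, replicate 2, also held 969 CPM of non-mouse counts, where the others held 5.11 to 27.5 CPM. Of 11696 genes tested in total tissue, 3.55% had a larger fitted increase in controls over these days, and 0.829% passed the test of that contrast in either direction. Total tissue control libraries of the 3 days carry different second index sequences, so day and index cannot be told apart. As the same controls enter the pattern that Ifi27l2a was chosen for, its own change is given without a test.

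Ifi27l2b, which encodes a longer protein with the repeated exon, was higher with T.mu in both preparations at each of the 3 days. In epithelial cells at day 3 the litters gave 190, 249 and 154 CPM in T.mu mice, against 42.4, 32.3 and 39.8 CPM in control mice. At day 14 they gave 147, 135 and 167 CPM in T.mu mice, against 50.9, 58.9 and 62.0 CPM in control mice. At day 48 they gave 133, 91.6, 146 and 88.7 CPM in T.mu mice, against 61.2, 50.9, 55.5 and 48.8 CPM in control mice. No T.mu library overlapped a control at any day, and control levels were far from 0. How many of all genes show no overlap was not counted.

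By edgeR's quasi-likelihood test with Benjamini-Hochberg adjustment over 10119 genes, Ifi27l2b rose in epithelium by log2 2.31 ± 0.32 at day 3 (4.96-fold, adjusted p = 2.08e-06), where 0.326% of genes passed as higher. The edgeR change was 1.38 ± 0.26 at day 14 (2.61-fold, adjusted p = 0.00169; 0.336% passed as higher) and 1.06 ± 0.22 at day 48 (2.09-fold, adjusted p = 0.00831; 0.267% passed as higher). The day 48 call was lost, with an edgeR adjusted p of 0.0518 to 0.0738, when control replicate 2, control replicate 3 or T.mu replicate 3 was left out.

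In total tissue Ifi27l2b kept both arms apart at day 48, where Ifi27l2a did not. At day 3 the litters gave 262, 395 and 264 CPM in T.mu mice, against 75.4, 80.0 and 101 CPM in control mice. At day 14 they gave 374, 264 and 188 CPM in T.mu mice, against 65.9, 31.8 and 71.6 CPM in control mice. At day 48 they gave 186, 152, 207 and 196 CPM in T.mu mice, against 70.1, 90.3, 61.4 and 88.3 CPM in control mice. T.mu was higher in every litter, and the closest libraries at day 48 were at 152 and 90.3 CPM. How common such separation is among all genes was not counted.

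The edgeR change of Ifi27l2b in total tissue was log2 1.84 ± 0.22 at day 3 (3.58-fold, adjusted p = 3.78e-07), with 0.47% of 11696 genes passing as higher. It was 2.21 ± 0.25 at day 14 (4.62-fold, adjusted p = 2.94e-08; 0.804% as higher) and 1.27 ± 0.20 at day 48 (2.40-fold, adjusted p = 5.36e-05; 1% as higher). Between day 3 and day 48 the log2 level was lower by 0.73 ± 0.21 in T.mu mice, and in control mice it differed by -0.16 ± 0.20 (edgeR adjusted p = 0.952). Fitted levels of both genes were thus lower at day 48 than at day 3 in T.mu tissue. In control tissue that of Ifi27l2a was higher, and that of Ifi27l2b was not shown to differ.

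Whether the Ifi27l2b response itself changed with time was not resolved. The T.mu-over-control log2 fold change at day 48 minus that at day 3 was -1.25 ± 0.39 in epithelium (95% interval -2.03 to -0.47; edgeR adjusted p = 0.618) and -0.57 ± 0.29 in total tissue (-1.16 to 0.01; adjusted p = 0.594). Set against day 14 it was -0.32 ± 0.34 in epithelium (edgeR adjusted p = 1) and -0.94 ± 0.32 in total tissue (adjusted p = 0.233). In epithelium 0 genes passed either test (556 and 272 at an unadjusted p under 0.05; 0 by DESeq2), and in total tissue 0.0855% and 0.0427% of genes did. The same differences for Ifi27l2a in total tissue, which its choice fixed, were -2.46 ± 0.40 and -1.69 ± 0.43.

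Epithelium and total tissue did not differ detectably in the Ifi27l2b response. The log2 fold change in epithelium minus that in total tissue was 0.53 at day 3 (95% interval -0.25 to 1.32; edgeR adjusted p = 0.676), -0.82 at day 14 (-1.56 to -0.084; adjusted p = 0.642) and -0.16 at day 48 (-0.78 to 0.45; adjusted p = 0.915). At day 14 and day 3 the intervals thus reach to over 1 log2 unit on 1 side. For Ifi27l2a the difference was 2.53 ± 0.74 at day 14 and 3.55 ± 0.57 at day 48, as a description. Of all genes tested in both preparations 0.0338% passed this test at day 3, 0% at day 14 (842 at an unadjusted p under 0.05; 2 genes by DESeq2) and 0.0338% at day 48.

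**Figure D3:**
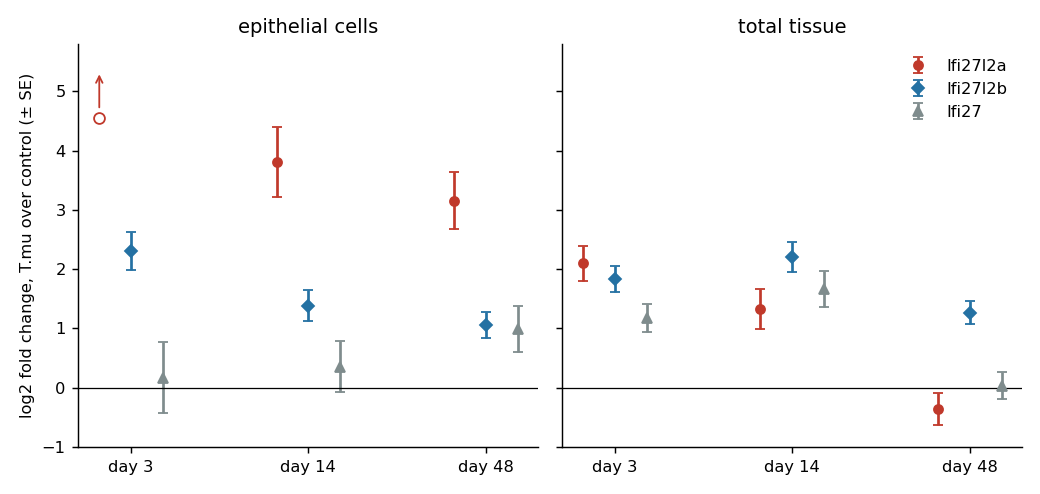
Log2 fold change of T.mu over control (± SE, edgeR fit) for Ifi27l2a, Ifi27l2b and Ifi27 in epithelial cells (left) and total tissue (right) at each day; the open circle with an arrow is the lower bound for Ifi27l2a at day 3, when its controls had 0 counts. Ifi27l2a and Ifi27 are near 0 in total tissue at day 48, and Ifi27l2b is at 1.27.

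In control mice Ifi27l2a was far lower in epithelial cells than in total tissue. Ifi27l2a had 27 counts over the 10 control epithelial libraries, 6 of them above 0, and 3448 over the 10 control tissue libraries. Its level was 0 to 5.63 CPM in control epithelium (median 2.80) and 45.7 to 215 CPM in control tissue (median 90.8). The pooled level was 37.2-fold lower in epithelium, 2.94 against 109 CPM. The same controls entered the choice of Ifi27l2a, so the difference is given without a test. The fitted size over all days depends on the day 3 libraries at 0, and over days 14 and 48 only, a setting chosen after seeing the data, it was log2 -4.98 ± 0.36 (SE). Of all genes 52.8% passed in this contrast and 29.7% were lower in epithelium, so differences between the preparations are common.

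Ifi27l2b was present in every library of both preparations of control mice, at 32.3 to 62.0 CPM in epithelium and 31.8 to 101 CPM in total tissue. The edgeR difference of log2 -0.60 ± 0.16 (1.51-fold lower in epithelium, adjusted p = 0.000929) was not called with relative log expression (RLE) scaling, at -0.34 (adjusted p = 0.0503), with DESeq2, at -0.35 (adjusted p = 0.0512), or over days 14 and 48 only, at -0.30 ± 0.18 (adjusted p = 0.172). RLE scaling moved the median of all genes in this contrast from -0.07 to 0.18. Tissue RNA contains epithelial RNA, and in such bulk samples fewer cells of a type and less RNA per cell cannot be told apart.

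The ratio of Ifi27l2a to Ifi27l2b counts within a library needs no scaling, and is used here only to set libraries side by side. At day 3 it was 0.906, 0.518 and 1.49 in T.mu mice, against 0.930, 0.861 and 0.538 in control mice. At day 14 it was 0.495, 0.867 and 0.733 in T.mu mice, against 2, 2 and 0.638 in control mice. At day 48 it was 0.617, 0.909, 0.465 and 0.571 in T.mu mice, against 1.59, 2.38, 2.18 and 1.504 in control mice. The 2 day 14 control ratios of 2 rest on 48 and 24 counts, and on 16 and 8. The arms overlapped at days 3 and 14 and stood apart at day 48. There every control library held more Ifi27l2a than Ifi27l2b counts and every T.mu library fewer. As Ifi27l2a was chosen by its day 48 levels in both preparations, the ratio carries that choice and is a description. The share of gene pairs whose ratios stand apart was not counted. In epithelium the ratio of summed counts ran the other way, 0.357, 0.2996 and 0.254 in T.mu mice at days 3, 14 and 48, against 0, 0.0542 and 0.0629 in control mice.

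**Figure D4:**
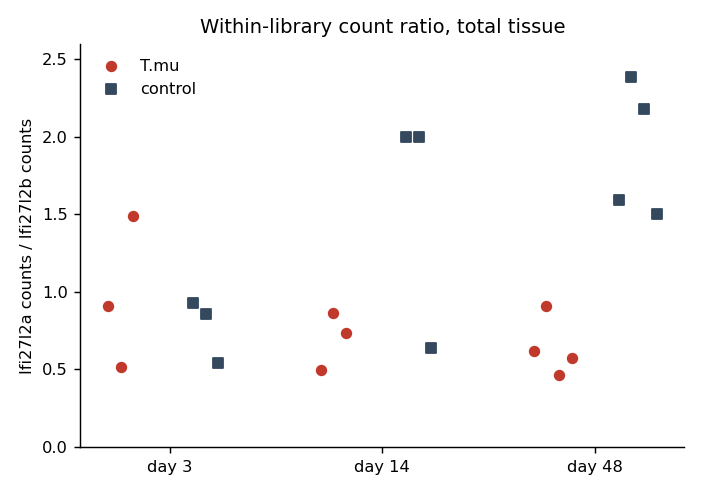
Ifi27l2a counts divided by Ifi27l2b counts in each total tissue library by day, T.mu as red circles and control as dark squares. At day 48 the 4 T.mu libraries sit between 0.465 and 0.909 and the 4 controls between 1.504 and 2.38. Ifi27l2a was chosen by its own day 48 values, so the ratio carries that choice.

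Summed levels of markers of other cell types differed between some groups, although few single markers passed the test. In total tissue the 7 macrophage and dendritic cell markers summed to 205 to 279 CPM in T.mu mice against 82.0 to 153 CPM in control mice at day 3, to 109 to 161 against 95.5 to 151 CPM at day 14, and to 48.0 to 210 against 112 to 208 CPM at day 48. The arms of this sum stood apart at day 3 only, and Itgax was at 0 in the day 14 controls. Of the 6 markers tested, 0 passed by edgeR or DESeq2 at any day (3 were higher at day 3 and 1 lower at day 48 at an unadjusted p under 0.05). The 9 lymphocyte and pan-leukocyte markers gave 308 to 474 CPM in T.mu tissue and 140 to 339 CPM in control tissue at day 48, with Cd3e and Cd79a at 0 in T.mu and 1 of 4 tested markers higher by edgeR. In control tissue this sum was 327 to 482 CPM at day 3. In epithelium the macrophage and dendritic sum was 4.30 to 23.5 CPM in all groups, with C1qa at 0 in both arms at day 48, in T.mu at day 3 and in controls at day 14, and in controls also Cd68 at day 14 and Lyz2 and Itgax at day 3. The lymphocyte sum in epithelium at day 48 was 43.2 to 67.3 CPM in T.mu mice and 27.2 to 41.7 CPM in control mice, with 0 of 3 tested markers passing by edgeR, by DESeq2 or at an unadjusted p under 0.05. The part of these cells in the levels of Ifi27l2a and Ifi27l2b was not tested. A table entry that is not a mouse gene, abundant in T.mu tissue, had medians of 29191.5, 17136.3 and 6513.5 CPM there at days 3, 14 and 48, and 5.11 to 969 CPM in control tissue. In control tissue the 969 CPM was in replicate 2 at day 48, and replicate 1 at day 14 had 512 CPM. Each was the highest Ifi27l2a control of its day, at 215 and 132 CPM. What this means for Ifi27l2a was not tested.

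Ifi27, the third gene of the family, was higher with T.mu in total tissue at days 3 and 14 and was not called at day 48 or in epithelium. In total tissue its level was 75.5 to 124 CPM in T.mu mice against 34.0 to 48.9 CPM in control mice at day 3. It was 64.3 to 89.1 against 15.9 to 27.5 CPM at day 14, and 32.0 to 78.1 against 57.4 to 66.7 CPM at day 48. The arms were apart at days 3 and 14 and overlapped at day 48. How many of all genes show such separation was not counted. Among all genes tested in total tissue, 0.47% and 0.804% passed edgeR as higher at days 3 and 14. By edgeR Ifi27 rose by log2 1.17 ± 0.24 at day 3 (2.26-fold, adjusted p = 0.00251) and 1.67 ± 0.31 at day 14 (3.18-fold, adjusted p = 0.00053). At day 48 it differed by 0.03 ± 0.23 (edgeR adjusted p = 0.974). The change of its response between day 14 and day 48 was -1.64 ± 0.38 (edgeR adjusted p = 0.0635). In epithelium it differed by log2 0.17, 0.36 and 0.99 at days 3, 14 and 48 (edgeR adjusted p = 0.946, 0.845 and 0.882).

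The pathway around these genes was read from gene lists that were chosen with earlier results of these data known. The 7 interferon ligand genes in the table were too low to test. Ifnb1 had 0 counts over all 40 libraries, and Ifna2, Ifna4, Ifne, Ifnl2, Ifnl3 and Ifng had 2 to 12. None of the 6 interferon receptor genes passed in any of the 6 comparisons of T.mu with control, with 4 tested in epithelium and 6 in total tissue by edgeR; 1 had an unadjusted p under 0.05, in total tissue at day 14, and DESeq2 called 0. Ifnar1, a chain of the type I receptor, differed by -0.44 to 0.76 on the log2 scale over the 6 comparisons (edgeR adjusted p from 0.385 to 0.999). Ifngr1 and Ifngr2, the chains of the interferon gamma receptor, differed by -0.09 to 0.36.

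Of 11 signal transducer genes, 10 were tested, and 2, 2 and 1 were higher in epithelium at days 3, 14 and 48, and 4, 5 and 3 in total tissue, with 0 lower by edgeR, DESeq2 or at an unadjusted p under 0.05. Of all genes 0.267% to 0.336% were called higher in epithelium and 0.47% to 1% in total tissue. The median log2 fold change of the transducers was 0.63, 1.11 and 0.57 in epithelium and 0.54, 1.03 and 0.36 in total tissue, where that of all genes lay between -0.11 and 0.07. Irf7, a transcription factor that amplifies interferon responses, rose in epithelium by 2.80 ± 0.33, 1.38 ± 0.28 and 1.52 ± 0.25 (edgeR adjusted p = 7.11e-08, 0.00357 and 0.00019). In total tissue Irf7 rose by 1.02 ± 0.18 and 1.00 ± 0.18 at days 3 and 14 (edgeR adjusted p = 0.00017 and 0.000365) and differed by 0.28 ± 0.15 at day 48 (adjusted p = 0.432). Irf9, a DNA-binding partner of Stat2, rose in total tissue at each day, by 1.47, 2.21 and 1.39 (edgeR adjusted p = 0.000193, 1.18e-05 and 0.000298). Stat2 rose there by 1.34, 2.67 and 1.48, and Usp18, which restrains signalling at the type I receptor, by 3.27, 4.16 and 1.98, with edgeR adjusted p of 0.00381 or less. These 3 genes, like Ifi27l2b, passed at day 48 in total tissue, and Irf7 did not. In epithelium Irf9 passed at day 3 only (edgeR adjusted p = 0.0147, 0.667 and 0.998 at days 3, 14 and 48). There Usp18 passed at day 14 only (edgeR adjusted p = 0.732, 0.021 and 0.283) and Stat2 at no day (0.263, 0.231 and 0.572).

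Of 31 other interferon-induced target genes, 28 were tested in epithelium and 30 in total tissue. In epithelium 9, 10 and 11 were higher with T.mu at days 3, 14 and 48, and in total tissue 20, 20 and 19, with 0 lower by edgeR, DESeq2 or at an unadjusted p under 0.05. Among all genes 0.326%, 0.336% and 0.267% were called higher in epithelium and 0.47%, 0.804% and 1% in total tissue. DESeq2 called 9, 12 and 12 higher in epithelium and 23, 20 and 22 in total tissue. Their median log2 fold change was 1.94, 1.74 and 1.54 in epithelium and 2.11, 2.40 and 1.75 in total tissue. In total tissue 16 of the 20 genes called at day 3 were called at day 48, all except Bst2, Ifi44, Lgals3bp and Oas3. Oas1a, which makes the activator of the antiviral nuclease RNase L, rose in total tissue by 1.44, 2.67 and 1.45 (edgeR adjusted p = 6.63e-05, 2.94e-08 and 4.01e-05). Ifi44, an interferon-induced cytoplasmic protein, rose by 4.42 and 4.33 at days 3 and 14 (edgeR adjusted p = 3.78e-07 and 0.000107) and differed by 1.59 ± 0.50 at day 48 (adjusted p = 0.0971). In epithelium Oasl2, an oligoadenylate synthetase-like protein, rose by 3.92, 3.65 and 2.63, and Lgals3bp, a secreted galectin-binding protein, by 2.39, 1.73 and 1.30, each with an edgeR adjusted p of 0.000418 or less.

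Set beside that list, the fitted day 48 difference of Ifi27l2a lay at opposite ends in the 2 preparations, a description, since these values chose it. In epithelium its 3.16 ± 0.48 (SE) exceeded the fitted log2 fold change of all 28 target genes. Isg15 at 2.96 ± 0.69 and Oas3 at 2.84 ± 0.47 lay within that error. In total tissue its -0.36 ± 0.27 was under that of all 30, of which 29 were above 0. The lowest of them was Ifitm3, an antiviral membrane protein, at -0.26. The ranks go by fitted value and do not set Ifi27l2a apart from the nearest of these genes.

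The genes whose log2 CPM followed each member most closely were ranked by Pearson correlation over the 20 libraries of a preparation, which share depth differences and the same treatment groups. In epithelium the 5 nearest to Ifi27l2a were Oasl2 (r = 0.93), Ifi27l2b (0.92), Ifi44 (0.90), Rtp4 (0.90) and Oas3 (0.89), and the 5 nearest to Ifi27l2b were Isg15 (0.93), Lgals3bp (0.93), Ifi27l2a (0.92), Oas3 (0.90) and Ube2l6 (0.90). Each member was thus among the 3 nearest genes to the other of 10119. In total tissue the pair had an r of 0.64, and Ifi27l2b ranked 15 for Ifi27l2a and Ifi27l2a 124 for Ifi27l2b among 11696 genes. As Ifi27l2a was chosen by its levels in these libraries, its correlations and ranks in both preparations carry that choice and are a description.

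In total tissue the nearest genes to Ifi27l2b were Irf9 (r = 0.95), Rtp4 (0.94), Ifit3 (0.94), Apol9b (0.93) and Oasl1 (0.93). Those nearest to Ifi27l2a were less close: Irf7 (0.72), Gbp3 (0.70), an identifier without a symbol, ENSMUSG00000089855.1 (0.70), Ifi44 (0.70) and Lgals9 (0.70). As these genes were picked for their likeness over the same libraries, their T.mu-over-control log2 fold changes are a description and carry no test. Gbp3, an interferon-induced GTPase, differed in total tissue by 2.13 ± 0.42 at day 3 and 0.50 ± 0.46 at day 48 (SE). Lgals9, a galectin, differed by 1.18 ± 0.19, 1.62 ± 0.20 and 0.41 ± 0.17 at days 3, 14 and 48. For Oasl1 and Rtp4, picked for their likeness to Ifi27l2b, the value at day 48 was 1.28 ± 0.19 and 2.25 ± 0.37.

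**Figure D5:**
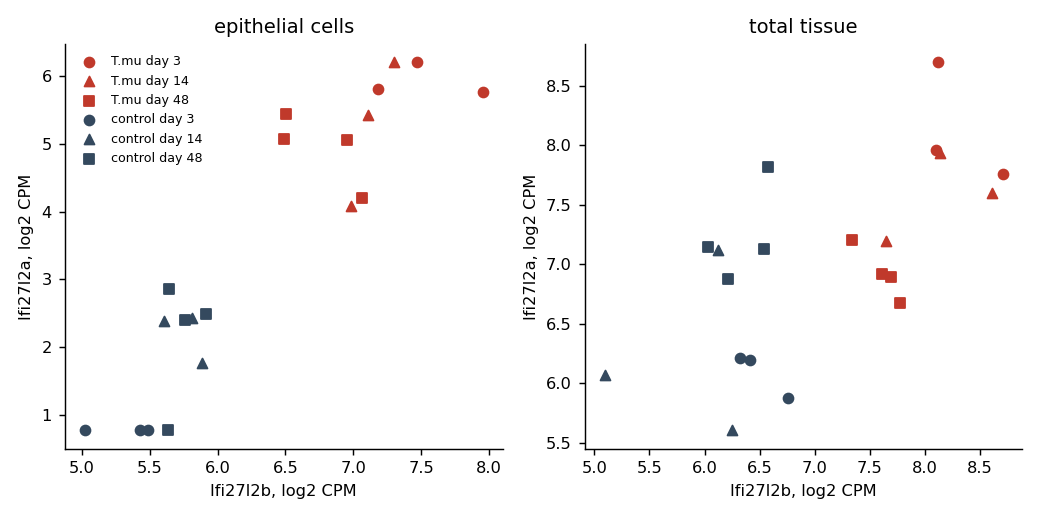
Log2 CPM (prior count of 2) of Ifi27l2a against Ifi27l2b in the 20 epithelial libraries (left) and the 20 total tissue libraries (right), T.mu red and control dark, with a marker for each day; the row of lowest points at left has 0 counts of Ifi27l2a. In total tissue the day 48 controls reach the Ifi27l2a level of T.mu libraries at a lower Ifi27l2b level. Ifi27l2a was chosen by its own values in these libraries.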

How the data were processed

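RNA of 40 colon libraries was sequenced by a 3′ digital gene expression protocol, per the labels' protocols. The authors deposited whole-number counts per gene, unnormalized; STAR and Subread are named in the submitters' processing notes, and versions and genome build are not given in the sources used here. Small counts (1 to 20) were even in 61.2% to 87.2% of cases per library, so counts may not be single molecules; counting bounds cover counting error only, and halved counts were tried.

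Of 45792 mouse gene identifiers, 45143 had a symbol in the name table. Genes were kept by edgeR's filterByExpr (minimum count 10, minimum total 15), scaled by TMM and tested with edgeR 4.0.16 in R 4.3.3 (robust quasi-likelihood test, 1 fit of 20 libraries per preparation or of all 40, Benjamini-Hochberg threshold 0.05). Samples were grouped by preparation, day and inoculum from the labels. Fitted log2 changes carry the SE of the fit. The pipeline was tested on simulated data. Alternatives were DESeq2 1.42.0, RLE scaling, other filters, halved counts, deeper libraries only, a litter block, fits of the compared libraries alone and leaving out each library.

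The labels give a litter to each library, so equal numbers pair libraries across groups; over 20 T.mu and control pairs, deviations from the group means had a median correlation of 0.023 (-0.103 to 0.186), with 3 above 0.1. Members and lists were chosen with earlier results of these data known. The planned tests of Ifi27l2a between days and between preparations in controls are given as descriptions, since those controls entered its choice. Named genes were the members, Ifi27, the 5 nearest genes by correlation, the 2 genes with the smallest adjusted p per list and preparation, and the neighbouring genes; Bst2, Oas3 and Ifitm3 were named after their values were seen. Exons and windows were read from GRCm38 with GENCODE M21 (Python 3.11.15).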

Additional observations from a re-analysis of the deposited data

How the results depend on the processing

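Of 441 alternative values for 25 results of Ifi27l2a and Ifi27l2b, 429 kept their direction and call, or moved by less than 1 SD where there was no test, and none was reversed. For Ifi27l2b the difference between control epithelium and control tissue lost its call with RLE scaling (-0.34), DESeq2 (-0.35) and days 14 and 48 only (-0.30, chosen after seeing the data); the cause was not tested. Its epithelial response at day 48 was 0.95 to 1.18 with single libraries left out, and 3 of the 8 settings ended the call. For Ifi27l2a, whose controls at day 3 were at 0, the fitted epithelial log2 fold change depends on the setting: 9.14 in the reported fit, 6.69 with DESeq2, 8.14 with counts halved and 8.15 from the compared libraries alone. The fitted change of control epithelium between days 3 and 48, 4.99, was likewise 2.52 with DESeq2 and 4.05 with counts halved. In total tissue at day 14 it was 2.04 without libraries under 400000 counts, against 1.33, and 0.92 to 1.88 with single libraries left out. At day 48 in total tissue it stayed below 0 in every setting run, from -0.51 to -0.13.

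With the litter as replicate block, no call of Ifi27l2b changed (epithelium 2.34, 1.39 and 1.04 and total tissue 1.82, 2.15 and 1.29 at days 3, 14 and 48), and the control day contrasts could not be fitted. The block raised the genes called in epithelium at day 14 to 92 from 51. Counts of all genes called in T.mu against control moved more than the members did. Over the alternatives that keep every group whole or drop shallow libraries they were 9 to 61, 55 to 261 and 29 to 34 in epithelium (36, 51 and 29 reported) and 47 to 103, 27 to 152 and 99 to 318 in total tissue (56, 111 and 210 reported). With single libraries left out they were 18 to 52, 19 to 50 and 13 to 28 in epithelium, and 41 to 55, 54 to 196 and 100 to 293 in total tissue. RLE scaling called 87 higher and 37 lower in total tissue at day 14, against 94 and 17, and 3626 higher and 2667 lower in control epithelium against tissue, where TMM gave 2733 and 3516. The level of Ifi27l2a in control epithelium rests on 27 counts in all, and its lower bound at day 3 was 11.7-fold with counts halved, against 23.4-fold, a setting added after seeing the data.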
